A study of Mus musculus with 6 samples.

Results

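The RNAs described are 10 long noncoding genes, chosen by symbol from the 52636 genes in each table, and were measured in RAW264.7, an established mouse macrophage line labelled BALB/c. Of these, 8 are hosts of small nucleolar RNAs (Gas5, Snhg1, Snhg3, Snhg5, Snhg8, Snhg12, Snhg15 and Epb41l4aos) and 2 are nuclear RNAs (Neat1 and Malat1). In 3 libraries the cells had been kept for 24 h in C2S, an extract, at 150 µg/ml, and in the 3 PM_control libraries at 0 µg/ml. The labels spell out neither C2S nor PM. They name no separate cultures, so the p-values reflect only how far these libraries differ, which may be technical. The question was how hosts whose spliced RNA is normally destroyed and RNAs that stay in the nucleus differed between cells with and without the extract.

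Small nucleolar RNAs (snoRNAs) guide chemical modification or cleavage of ribosomal RNA and are cut from introns of longer host transcripts. The spliced host RNA that is left over is mostly noncoding, carries short reading frames with early stop codons, and is cleared by nonsense-mediated decay when ribosomes read it. Many hosts belong to the 5′ terminal oligopyrimidine (TOP) class, RNAs that begin with a C followed by a run of pyrimidines and whose translation follows growth signals. Malat1 collects in nuclear speckles, bodies rich in splicing factors. Neat1 is the scaffold of paraspeckles, other nuclear bodies, and is made as a short form with an early poly(A) site and a long form on which paraspeckles are built.

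The starts of the hosts are shown because the TOP tract that many hosts share lies there. RefSeq start sites (GRCm38.p6, the build called mm10) were found for 8 of the 10 RNAs, and the windows run from 50 bases before to 30 bases from the start, 5′ to 3′ on the transcribed strand. Capitals mark CTTT or TTTTT beginning between 5 bases before and 15 bases after the start base, on the transcribed strand, and TATAA beginning between 50 and 15 bases before it. The words were chosen after the sequences had been seen.
Gas5, chr1:161035116-161035195, plus strand: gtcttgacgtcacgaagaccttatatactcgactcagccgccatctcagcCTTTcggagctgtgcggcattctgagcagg
Snhg1, chr19:8723437-8723516, plus strand: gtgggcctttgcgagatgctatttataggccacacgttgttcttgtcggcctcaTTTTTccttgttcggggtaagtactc
Snhg5, chr9:88522868-88522947, minus strand: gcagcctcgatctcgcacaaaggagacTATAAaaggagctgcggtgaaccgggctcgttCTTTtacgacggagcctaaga
Snhg8, chr3:123508307-123508386, minus strand: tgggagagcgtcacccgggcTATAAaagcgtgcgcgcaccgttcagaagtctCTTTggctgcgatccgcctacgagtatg
Snhg12, chr4:132308628-132308707, plus strand: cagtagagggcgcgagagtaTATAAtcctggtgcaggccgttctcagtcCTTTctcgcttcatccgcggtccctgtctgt
Snhg15, chr11:6528731-6528810, minus strand: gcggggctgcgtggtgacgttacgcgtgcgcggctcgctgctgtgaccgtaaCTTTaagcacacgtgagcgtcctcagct
Malat1, chr19:5802643-5802722, minus strand: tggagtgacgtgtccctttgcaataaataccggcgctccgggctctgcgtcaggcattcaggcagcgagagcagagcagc

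CTTT began within its range around the start in 5 RNAs (Gas5, Snhg5, Snhg8, Snhg12 and Snhg15), and in 9.14% of all 32851 RefSeq start windows. It began on the start base itself in Gas5 alone, so a match does not by itself show a TOP start. TTTTT began within that range in Snhg1 and in 1.74% of all windows. TATAA lay upstream of Snhg5, Snhg8 and Snhg12 and in 4.49% of all windows. Neither Malat1 nor Snhg3 held any of the 3 words in these ranges, and Gas5 has another listed start, at position 161034601 of chromosome 1, that holds none. A match describes the letters in the window and no binding site.

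The hosts carry 30 annotated snoRNA genes at 28 separate places within their bounds and on the same strand, 9 places in Gas5, 8 in Snhg1, 4 in Snhg12, 2 each in Snhg3 and Snhg5, and 1 each in Snhg8, Snhg15 and Epb41l4aos. Neat1 and Malat1 hold none. The C/D type, which guides methylation of ribosomal RNA, is named after its conserved boxes. The snoRNAs of Snhg5 and a C/D snoRNA of Snhg12, the host pair with the largest rises, read as follows, with box C (TGATGA) and box D (CTGA) in capitals.
Snord50a in Snhg5, chr9:88521529-88521600, minus strand: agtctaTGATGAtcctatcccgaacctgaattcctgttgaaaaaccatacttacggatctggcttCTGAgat
Snord50b in Snhg5, chr9:88521797-88521868, minus strand: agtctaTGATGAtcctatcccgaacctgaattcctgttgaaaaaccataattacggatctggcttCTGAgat
Snord99 in Snhg12, chr4:132310691-132310764, plus strand: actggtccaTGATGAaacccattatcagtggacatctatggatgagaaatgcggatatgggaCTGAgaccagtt

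The snoRNAs themselves could not be followed. The 30 genes were 60 to 205 bases long, whereas gene length exceeded effective length, the length over which a fragment can start, by 254 to 271 bases in the 6 libraries. Their highest effective length in any library was 3.69 bases, and 28 of the 30 are listed at 0 counts throughout. The other 2, Snora73a and Snora73b in Snhg3, had 4 counts in all. Every value below is therefore that of the spliced or unspliced host RNA.

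Estimated counts per library totalled 8594485 to 10665869, and 3 counts in one of them, taken as the floor, equalled 0.281 to 0.349 CPM (counts scaled to a common library size, with TMM for composition). A floor of this kind covers counting error only. All 8 macrophage markers had at least 10 counts in every library. Of these, 5 were called higher (Itgam, Csf1r, Adgre1, Cd68 and Lyz2), Cd14 was called lower, and Spi1 and Fcgr1 were not called. The exons of Itgam overlap Gm49368 over 68.7% and those of Csf1r overlap Hmgxb3 over 15.1%, so both are uncertain. Cd68 overlapped between groups in TPM. Their summed level was 8300 to 8520 CPM after C2S and 7090 to 7510 CPM in the control libraries. Of 7 T and B cell markers, 4 were at 0 in all libraries, and the list summed to 1.08 to 2.16 CPM after C2S and 0 to 0.404 CPM in the control libraries. Of 8 fibroblast, epithelial and endothelial markers, 5 were at 0 in all libraries, and the sums were 3.39 to 9.50 and 0.551 to 0.735 CPM. Pecam1, an endothelial marker that myeloid cells also make, had 164 counts after C2S and 6 in the control libraries. The part of these markers in the results was not tested.

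Of the 10 RNAs, all passed the low-count filter, 6 were called higher and 1 lower after C2S by edgeR's quasi-likelihood test at an adjusted p of 0.05. That test called 55.4% of the 11561 genes tested, 27.0% higher and 28.4% lower. Among the hosts, 5 of 8 were called higher, 0 lower, and 3 were not called, with a median log2 fold change of 0.69 against 0.00 for all genes tested. The nuclear pair split, Malat1 higher and Neat1 lower. Of all genes called, 48.8% were higher, a share that became 35.2% by limma on log2(TPM + 1) and 38.3% when only library sizes set the scale. In 9 of the 10 RNAs the 3 CPM values of one group lay on one side of the 3 of the other, as they did in 61.1% of all genes tested.

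**Figure D1:**
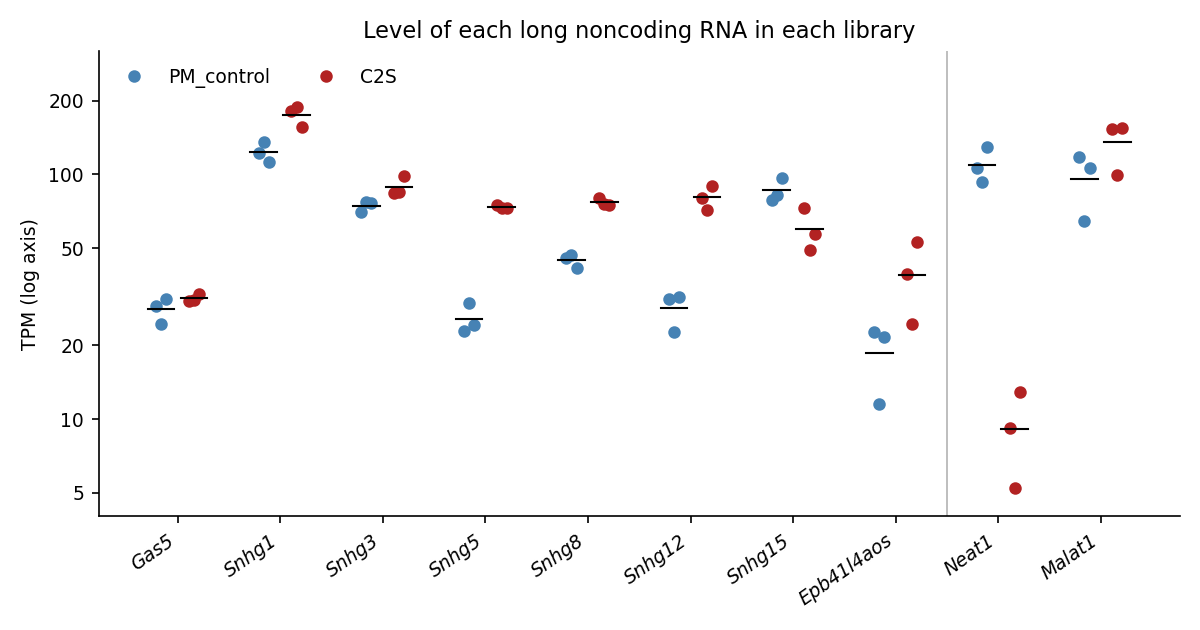
Level of each RNA in each library, in TPM (the deposited level per transcript length and depth, log axis); points are libraries, black lines are group means, blue is PM_control and red is C2S. Snhg5, Snhg8 and Snhg12 sit higher in all 3 C2S libraries, Gas5 overlaps, and Neat1 falls from between 92.7 and 129 to between 5.22 and 12.9.

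Snhg5 and Snhg12 had the largest rises among the hosts. Snhg5 (ENSMUSG00000097195, chromosome 9, 88521050 to 88522929), the host of the pair printed above, stood at 75.1, 73.1 and 72.8 TPM after C2S and 22.9, 29.9 and 24.2 TPM in the control libraries. The C2S libraries were nearly level with one another, and all lay above all controls. In CPM it rose from 12.8 ± 1.62 to 38.5 ± 0.774 (SD, n = 3 in each). On the log2 scale this is a rise of 1.59 ± 0.11 (SE; adjusted p = 3.97e-09 in edgeR).

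Snhg12 (ENSMUSG00000086290, chromosome 4, 132308623 to 132311024), which carries both C/D and H/ACA snoRNAs, stood at 80.4, 71.7 and 89.5 TPM after C2S and 31.1, 22.7 and 31.4 TPM in the control libraries. The groups did not overlap. Its log2 fold change was 1.57 ± 0.16 (adjusted p = 4.6e-07 in edgeR).

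Snhg8, Snhg1 and Epb41l4aos were also called higher, by less. Snhg8 (ENSMUSG00000104960, chromosome 3, 123507552 to 123508404), host of Snora24, stood at 79.7, 76.0 and 75.3 TPM after C2S and 45.5, 46.8 and 41.3 TPM in the control libraries. All C2S values lay above all controls, at a log2 fold change of 0.82 ± 0.17 (adjusted p = 0.000505 in edgeR). Snora24 covers 15.2% of the exon length of Snhg8. It is listed at 0 counts, but its effective length was 0 in every library, so no reads could be assigned to it. That 0 cannot tell whether reads from Snora24 were counted for Snhg8, and the level of Snhg8 remains uncertain.

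Snhg1 (ENSMUSG00000108414, chromosome 19, 8723475 to 8726443), which carries 8 snoRNAs, stood at 181, 188 and 156 TPM after C2S and 122, 135 and 112 TPM in the control libraries, and the groups did not overlap. Its log2 fold change was 0.55 ± 0.10 (adjusted p = 0.000206 in edgeR). By group mean it was the most abundant of the 10 per length in both groups. In PM_control replicate 3, however, Neat1 stood above Snhg1, at 129 against 112 TPM.

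Epb41l4aos (ENSMUSG00000087590, chromosome 18, 33794892 to 33795986), the least abundant host in the control libraries, had 46, 25 and 53 counts after C2S and 28, 12 and 23 in the control libraries. Its levels were 39.2, 24.5 and 53.0 TPM against 22.8, 11.5 and 21.7 TPM, so the lowest C2S library barely cleared the highest control. The log2 fold change of 1.12 ± 0.34 (adjusted p = 0.00969 in edgeR) is the least precise of the 10. The call ended without C2S replicate 3 (adjusted p = 0.0641), without PM_control replicate 2 (0.054) and with limma on log2(TPM + 1) (0.0704), with values between 0.00116 and 0.0704 across 17 alternatives.

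Gas5, Snhg3 and Snhg15 were not called. Gas5 (ENSMUSG00000053332, chromosome 1, 161034422 to 161038539), whose spliced RNA accumulates when growth or translation stops, stood at 30.5, 30.6 and 32.5 TPM after C2S and 28.9, 24.5 and 31.0 TPM in the control libraries, and the groups overlapped. Its log2 fold change was -0.07 ± 0.17 (adjusted p = 0.753 in edgeR). Its sign turned with limma on log2(TPM + 1) (0.15), with the GC trend removed (0.12) and without PM_control replicate 1 (0.02), and none of these passed the test. With 77 to 121 counts per library it was measured on few reads.

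Snhg15 (ENSMUSG00000085156, chromosome 11, 6525591 to 6528760), host of Snora9, went the other way, at 73.1, 49.2 and 56.8 TPM after C2S and 78.9, 82.7 and 96.3 TPM in the control libraries. The groups did not overlap, but the log2 fold change of -0.38 ± 0.17 did not pass the test (adjusted p = 0.0635 in edgeR). It passed in 5 of 17 alternatives, with adjusted p from 0.026 to 0.206. They were the GC trend removed (0.029), library sizes alone (0.0261), no low-count filter (0.0486), limma on log2(TPM + 1) (0.0467) and the fit without C2S replicate 1 (0.026).

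Snhg3 (ENSMUSG00000085241, chromosome 4, 132348014 to 132353686), host of a pair of H/ACA snoRNAs that act in ribosomal RNA cleavage, stood at 84.3, 84.8 and 98.3 TPM after C2S and 70.3, 77.0 and 76.1 TPM in the control libraries. The log2 fold change was 0.30 ± 0.16 (adjusted p = 0.131 in edgeR), and it passed with the GC trend removed (0.0209). Its exons overlap Gm17300, on the other strand, over 71.5% of their length. Gm17300 had 284 counts after C2S and 278 in the control libraries and Snhg3 had 291 and 263, and the sources used here do not give strandedness, which leaves its value uncertain.

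Neat1 (ENSMUSG00000092274, chromosome 19, 5824708 to 5845478) fell further than any other of the 10. It had 275, 177 and 326 counts after C2S against 2202, 1753 and 2342 in the control libraries. Its levels were 9.20, 5.22 and 12.9 TPM against 106, 92.7 and 129 TPM, so that the highest C2S library lay far below the lowest control. In CPM it fell from 208 ± 34.7 to 28.4 ± 7.91, 7.32-fold, a log2 fold change of -2.87 ± 0.14 (adjusted p = 4.14e-11 in edgeR). Among the 564 long noncoding genes tested, 3 had a lower log2 fold change. In bulk RNA, fewer cells that make an RNA and less of it per cell cannot be told apart.

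Malat1 (ENSMUSG00000092341, chromosome 19, 5795690 to 5802672), the gene next along the chromosome in the same orientation, rose in CPM from 297 ± 75.8 to 470 ± 80.7, a log2 fold change of 0.66 ± 0.14 (adjusted p = 0.000861 in edgeR). Its CPM values were 504, 378 and 528 after C2S against 355, 211 and 324 in the control libraries and did not overlap. Per length they did, at 153, 99.5 and 155 TPM against 118, 64.5 and 106 TPM, and the call ended with limma on log2(TPM + 1) (log2 difference 0.51, adjusted p = 0.204; range over its alternatives 2.91e-22 to 0.204). In CPM, Neat1, Malat1, Epb41l4aos, Snhg12 and Snhg15 were each lowest in replicate 2 of both groups.

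The Malat1 to Neat1 balance differed between the groups. The ratio of Malat1 to Neat1 TPM was 16.6, 19.1 and 12 after C2S and 1.11, 0.696 and 0.826 in the control libraries, where the levels of the pair overlapped. In CPM, which is not scaled for length, Malat1 exceeded Neat1 in all 6 libraries. In the controls the order per length was Snhg1, Neat1, Malat1, Snhg15, Snhg3, Snhg8, Snhg12, Gas5, Snhg5 and Epb41l4aos. The libraries of neighbours overlapped from Snhg1 down to Snhg15 and from Snhg12 down to Snhg5. With C2S it was Snhg1, Malat1, Snhg3, Snhg12, Snhg8, Snhg5, Snhg15, Epb41l4aos, Gas5 and Neat1. Here neighbours overlapped from Snhg3 to Snhg8 and from Snhg5 to Gas5, and Neat1 lay below all others. Snhg5, at 72.8 to 75.1 TPM, also lay within the range of Snhg12, at 71.7 to 89.5 TPM.

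Set side by side, the 8 hosts together stood at 643, 598 and 634 TPM after C2S and 422, 431 and 434 TPM in the control libraries. Neat1 and Malat1 together stood at 162, 105 and 167 TPM after C2S and 224, 157 and 235 TPM in the control libraries. Per length, hosts thus exceeded the nuclear pair 3.96, 5.71 and 3.79 times after C2S and 1.88, 2.74 and 1.85 times in the control libraries. The order of hosts over the nuclear pair holds only per length. The nuclear totals overlapped between the groups per length too, with C2S replicate 3 at 167 TPM above PM_control replicate 2 at 157 TPM. In summed CPM the nuclear pair stood at 531, 399 and 565 after C2S and 557, 388 and 570 in the control libraries, which overlap. The hosts summed to less CPM than the pair in all 6 libraries, at 153, 146 and 151 against 91.3, 90.5 and 89.0. The nuclear total mixes a fall of Neat1 with a rise of Malat1, and no test was made over the groups of RNAs.

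**Figure D2:**
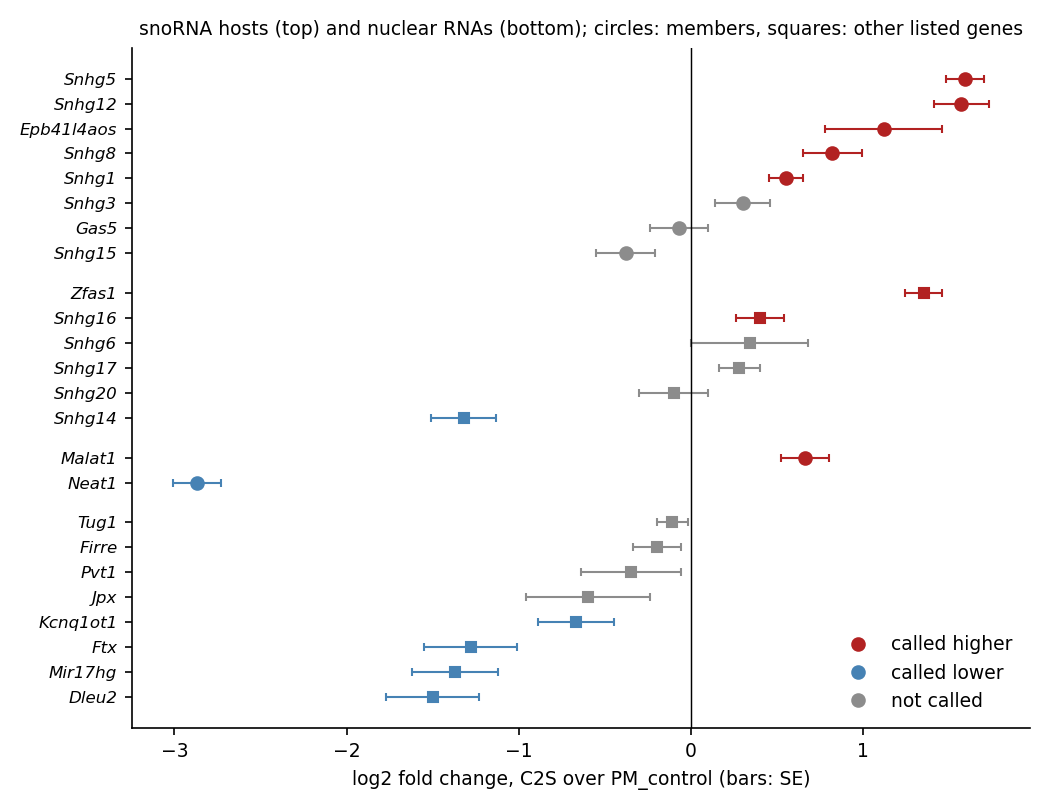
Log2 fold change of C2S over PM_control (bars, SE) for the members (circles) and the other listed snoRNA hosts and nuclear long noncoding RNAs that were tested (squares), red where called higher, blue where called lower and grey where not called. Hosts run from 1.59 for Snhg5 to -0.38 for Snhg15, and Neat1 lies at -2.87.

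The deposited length of a gene is the mean of its transcripts' lengths weighted by their estimated abundance, so it shifts when reads are assigned to other transcripts. For Neat1 it was 4393, 6107 and 4285 bases after C2S and 3200, 3147 and 3143 bases in the control libraries. The 3 controls were nearly equal and every C2S library lay above them, by 1770 bases on average (exact two-sided permutation test, p = 0.1, the smallest that 3 against 3 can give; 0.25 adjusted over the 10 RNAs). Without C2S replicate 2, which had the fewest Neat1 counts, the difference was 1180 bases.

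The tables list 3 transcripts for Neat1, whose lengths in GENCODE M21 are 20771, 3004 and 1030 bases, the first being the long form. If these lengths hold for the authors' annotation, the long form made up between 7.21% and 25.7% of Neat1 molecules after C2S and between 0.783% and 11% in the control libraries. Each range spans the 3 libraries and every division of the rest between the shorter transcripts. The shorter transcripts then stood at 3.88 to 12 TPM after C2S and 82.7 to 128 TPM in the control libraries. The long form stood at 0.719 to 2.13 TPM after C2S and 0.745 to 13.8 TPM in the control libraries, ranges that overlap. So the fall was seen in the shorter transcripts, and a change of the long form was not detectable at this resolution.

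**Figure D3:**
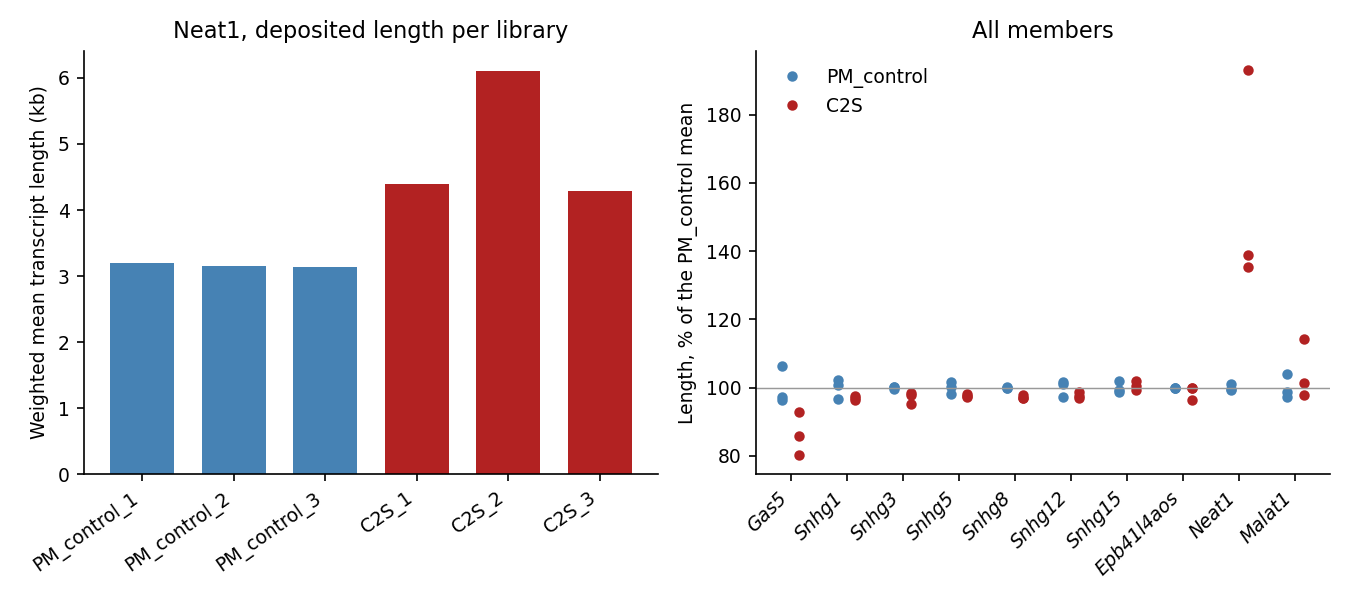
Left, deposited weighted mean length of Neat1 in kb in each library; right, the same measure for all members as a percentage of the PM_control mean, with points for libraries (blue PM_control, red C2S). Neat1 is longer in all C2S libraries, 4285 to 6107 bases against 3143 to 3200, and Gas5 is shorter.

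Of the other RNAs, the lengths of Gas5, Snhg3 and Snhg8 did not overlap between groups and were shorter after C2S. Gas5 stood at 743.4, 688.2 and 643.6 bases after C2S and 851.6, 779.2 and 772.5 bases in the control libraries (exact permutation test, p = 0.1). In GENCODE M21, 20 of its 25 listed transcripts are of the retained intron type, 370 to 2556 bases long. The other 5 have 346 to 665 bases. These ranges overlap, so the mean length does not tell which type changed. Snhg8 stood at 455.3, 455.9 and 459.4 against 470.9, 469.3 and 469.1 bases, where the retained intron transcript has 776 bases and the others 448 and 528. Snhg3 had a mean of 428.1 against 440.5 bases. Among 9519 tested genes with several listed transcripts, lengths were apart and shorter after C2S in 8.37% and apart and longer in 6.62%, and 56 had a ratio of means of at least 1.558, that of Neat1.

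Other hosts and other nuclear RNAs give the setting for these changes. Of 13 further noncoding hosts listed, 6 were tested, 2 rose (33.3%) and 1 fell (16.7%), against 27.0% and 28.4% of all genes tested. Zfas1, host of C/D snoRNAs, stood at 58.2, 50.7 and 58.9 CPM after C2S and 18.5, 23.1 and 24.5 CPM in the control libraries (log2 fold change 1.35 ± 0.11; adjusted p = 1.67e-08 in edgeR). Snhg16, listed as 1810032O08Rik, had one of 0.40 ± 0.14 (adjusted p = 0.0254), and its exons overlap St6galnac2 over 17.9%, so it is uncertain. Snhg14, the very long imprinted host that spans the Prader-Willi region, fell from 14.3 ± 1.42 to 5.71 ± 1.46 CPM (adjusted p = 1.45e-05 in edgeR).

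By annotation alone, 11 genes outside the members that GENCODE M21 types as noncoding held a snoRNA and were tested. Of these, 5 were higher (45.5%) and 2 lower (18.2%; median log2 fold change 0.34). Over all genes tested the shares were 27.0% and 28.4%. The 11 are no separate set, since Zfas1, Snhg16 and Snhg14 are counted again here. They include Cct6a, known as a protein-coding chaperonin subunit gene, which was not called (0.08). Of 194 such protein-coding genes, 78 were higher (40.2%) and 47 lower (24.2%), with a median of 0.12. Cytosolic ribosomal protein genes, the best known TOP genes, were higher in 51 of 81 (63.0%) and lower in 2, with a median of 0.20. Of these, 29 hold a snoRNA and so count in both classes, and 20 of the 29 were higher. Long noncoding genes in general were higher in 142 of 564 (25.2%) and lower in 112 (19.9%).

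**Figure D4:**
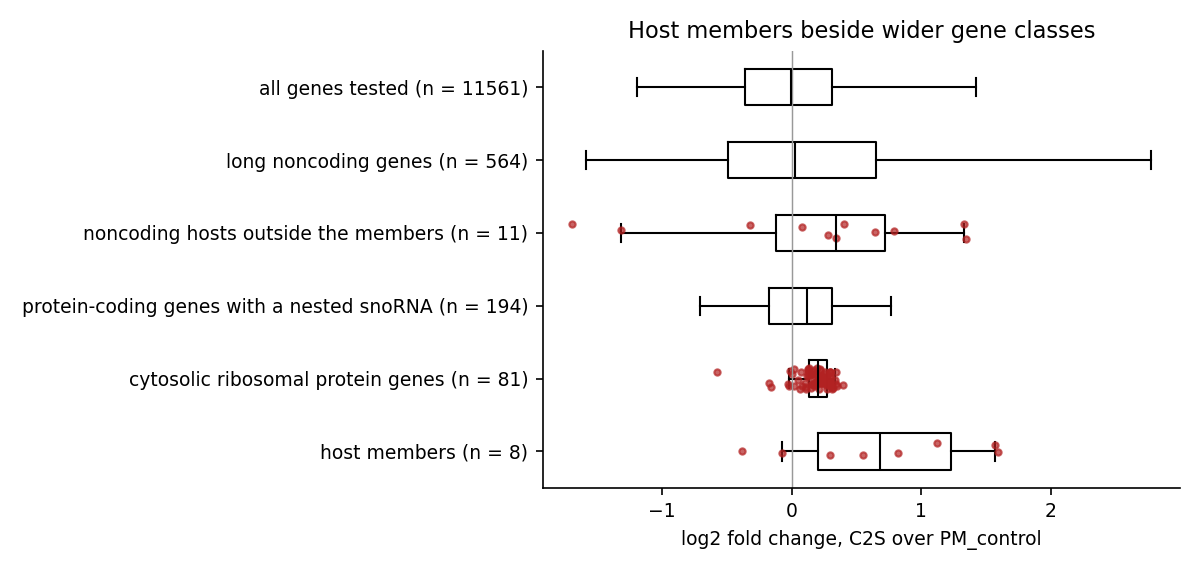
Log2 fold change of C2S over PM_control for the 8 host members beside wider classes; boxes show quartiles and the median, whiskers the 5th to 95th percentiles, and points single genes in classes of under 100. The host members have a median of 0.69 and span -0.38 to 1.59, and ribosomal protein genes lie close to their median of 0.20.

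Of 14 further nuclear long noncoding RNAs listed, 8 were tested, 0 rose and 4 fell (50%; median -0.64). Over all genes tested 27.0% rose and 28.4% fell. Dleu2, host of the microRNAs miR-15 and miR-16, fell from 7.0 ± 0.822 to 2.50 ± 0.96 CPM (adjusted p = 0.000173 in edgeR). Mir17hg, host of a growth-promoting microRNA cluster, fell from 7.16 ± 1.42 to 2.78 ± 0.556 CPM (adjusted p = 0.000199). Ftx had a log2 fold change of -1.28 ± 0.27 and Kcnq1ot1, an imprinted antisense RNA, one of -0.67 ± 0.22, both called lower, though the libraries of Kcnq1ot1 overlapped between groups. Tug1, at 60.7 ± 5.63 against 65.6 ± 5.06 CPM, and Firre were not called.

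Neighbouring genes that start within 1 kb on the other strand were found for Snhg1 and Gas5. Slc3a2, the heavy chain of amino acid exchangers, starts 106 bases from Snhg1. It stood at 1080, 1030 and 1040 CPM after C2S and 225, 241 and 206 CPM in the control libraries (log2 fold change 2.23 ± 0.07; adjusted p = 7.32e-14 in edgeR), beside 0.55 for Snhg1. Zbtb37, a zinc finger gene, starts inside the bounds of Gas5. The distance is 427 bases from the outermost annotated Gas5 start, which is not the start printed above. Zbtb37 was not called (-0.32 ± 0.18; adjusted p = 0.135 in edgeR), and its exons overlap Serpinc1 over 15.6%.

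Of 17 nonsense-mediated decay factors, which clear hosts, 7 rose (41.2%) and 5 fell (29.4%), with a median log2 fold change of 0.09. Over all genes tested 27.0% rose and 28.4% fell, and the share that fell is near that background. Upf1, the helicase at the centre of the pathway, fell from 235 ± 8.94 to 162 ± 14.2 CPM (adjusted p = 4.24e-06 in edgeR). Pnrc2, which links UPF1 to decapping, fell from 65.1 ± 3.59 to 30.9 ± 1.04 CPM. Nbas rose from 36.9 ± 1.57 to 55.5 ± 3.72 CPM, and Smg9, a regulator of the SMG1 kinase, by 0.39 ± 0.10 on the log2 scale. In TPM the libraries of Smg9 overlapped between groups. Of 9 exon junction complex genes, which mark spliced RNA for this pathway, 0 rose and 3 fell, among them Magoh (-0.35 ± 0.10) and Casc3 (-0.51 ± 0.07; 11.5% of its exons overlap Gm12359, so it is uncertain).

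Of 19 genes of decapping, 5′ to 3′ decay and the exosome, 3 rose (15.8%) and 8 fell (42.1%; median -0.17). Over all genes tested the shares were 27.0% and 28.4%. Dcp1a, a decapping cofactor, fell from 77.9 ± 2.43 to 42.0 ± 4.99 CPM, and Edc3 had a log2 fold change of -0.71 ± 0.08 with 22.1% overlap with Clk3. Exosc5 (0.26 ± 0.07) and Dcp1b (0.46 ± 0.15) rose, though the libraries of Exosc5 overlapped between groups in TPM. Of 15 protein-coding genes with transcripts known to be cleared by nonsense-mediated decay, 8 rose (53.3%) and 7 fell (46.7%; median 0.21). Ddit3 (4.71 ± 0.10) and Atf3 (4.27 ± 0.09) had the smallest adjusted p-values among rises, and Srsf7, a splicing factor, fell from 117 ± 7.86 to 48.1 ± 5.13 CPM. Map3k14 fell by 0.92 ± 0.10.

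Of 12 box C/D genes, whose proteins bind snoRNAs, 3 rose (25%) and 4 fell (33.3%), shares near the 27.0% and 28.4% of all genes tested. Their median was -0.17, with Fbl, the methyltransferase, at 0.15 ± 0.06, Pih1d1 at 0.29 ± 0.09, Nop56 at -0.33 ± 0.06 and Znhit6 at -0.69 ± 0.13. In TPM the libraries of Fbl and Pih1d1 overlapped between groups. Of 7 box H/ACA genes, 0 rose and 3 fell (median -0.14). Dkc1, the pseudouridine synthase, fell from 133 ± 10.8 to 81.5 ± 1.36 CPM (adjusted p = 2.8e-07 in edgeR) and Shq1, its assembly chaperone, from 16 ± 0.302 to 9.18 ± 0.913 CPM. Of 12 regulators of TOP RNAs, 4 rose and 4 fell, with Eif4ebp1, which restrains cap-dependent translation, at 0.53 ± 0.09, Tsc2 at 0.46 ± 0.08 and Akt1s1 at -0.46 ± 0.09. Mlst8 was at -0.99 ± 0.11, with 22.5% of its exons overlapping Bricd5.

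Of 22 paraspeckle protein genes, partners of Neat1, 4 rose (18.2%) and 9 fell (40.9%), against 27.0% and 28.4% of all genes tested, and their median was -0.02. Rbm12 fell from 67.3 ± 2.58 to 12.5 ± 0.468 CPM (adjusted p = 1.45e-12 in edgeR) and Tardbp, which encodes TDP-43, from 313 ± 3.57 to 159 ± 4.36 CPM, though both overlap another gene, over 32.6% and 23.3% of their exons. Ewsr1, an RNA-binding protein gene, rose by 0.34 ± 0.06 on the log2 scale, but its libraries overlapped between groups in TPM. Of 12 nuclear speckle genes, 2 rose and 10 fell (median -0.51). Srrm2, a core component of speckles, fell from 1050 ± 81 to 476 ± 40.5 CPM (adjusted p = 1.14e-09 in edgeR). Srsf1 fell from 302 ± 23.9 to 144 ± 14.7 CPM, while Srsf5 (0.40 ± 0.07) and Ddx39b (0.17 ± 0.06) rose. Per length Ddx39b stood at 287 ± 24.7 TPM after C2S and 286 ± 5.88 TPM in the control libraries, which overlap.

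Over the 6 libraries, the genes whose log2 CPM was most like that of Neat1, among the 4327 genes averaging 50 CPM or more, were Setd7 (Pearson r = 0.999), Srsf1 (0.998) and Cdc42se1 (0.997). Such values were common, since 19.0% of those genes exceeded 0.9, and the libraries share a group difference. For Gas5 they were Stat6 (0.959), Asf1b (0.927) and Arfgef3 (0.913), and 3 genes exceeded 0.9.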

How the data were processed

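The series design text names fastp for trimming, STAR for alignment to mm10, RSEM for counting and edgeR for the authors' comparison. The sources used here do not give versions, annotation or strandedness. For each library the authors deposited expected counts (RSEM's estimated reads per gene), TPM, length and effective length, per the file headers. Both lengths are in bases. GENCODE M21 (GRCm38) held 52489 of the 52636 genes and supplied coordinates and exon overlaps on either strand. Snhg4 and Snhg7 found no match.

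After rounding, genes that passed filterByExpr (count 10, total 15) numbered 11561 and held 99.85% of counts. They were tested in edgeR 4.0.16 (R 4.3.3; alternatives used limma 3.58.1 and DESeq2 1.42.0) by quasi-likelihood with TMM, and Benjamini-Hochberg adjustment at 0.05 ran over all of them. The SE is approximate, being the log2 fold change over the square root of F. TPM was tested only in an alternative, by limma on log2(TPM + 1). Lengths were compared by exact permutation. The edgeR test alone was checked on simulated counts, in which far fewer genes changed than were called here. Replicates differed by 4.3 to 6.46 times the sampling noise (chi-square over its degrees of freedom), so none was a repeat deposit. Of the value columns, 0 lacked a sample.

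The members and lists were chosen with earlier results of these data known. Named were all members, up to 2 called genes per list and direction by adjusted p, coding genes starting within 1000 bases on the other strand, and the 3 genes most like Gas5 and Neat1. A gene that the rule names is not reported here. Ftx, Kcnq1ot1, Tug1 and Firre were named after their values were seen. Values of genes with 10% or more of their exon length in another gene are uncertain.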

Additional observations from a re-analysis of the deposited data

How the results depend on the processing

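Over 17 alternatives for each of the 10 RNAs, 157 of 170 fits kept the direction and side of the threshold, 4 lost a call, 6 gained one and 3, all of Gas5 (0.15, 0.12 and 0.02), turned direction without a call. Leaving out each library gave Gas5 log2 fold changes from -0.19 to 0.02. Snhg1, Snhg5, Snhg8, Snhg12 and Neat1 kept their calls in all 17, with Neat1 between -3.51 and -2.71 and Snhg5 between 1.49 and 1.69. The number of the 10 called lower was 2, not 1, with library sizes alone, limma on log2(TPM + 1), no low-count filter and the GC trend removed, and 1 to 2 when each library was left out, Snhg15 being the added call. Limma on log2(TPM + 1) called 1565 of all genes higher, against 3123. Over leaving out each library, 2920 to 3150 genes were higher and 2981 to 3188 lower. The number of the 10 RNAs called higher was then 5 to 6. It was 4 with limma on log2(TPM + 1) and 7 with the GC trend removed.

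Over all genes, libraries with the same replicate number did not deviate together (correlations -0.011, 0.069 and 0.034), and the labels tie them to no shared source, although 5 of the 10 RNAs were lowest in replicate 2 of both groups in CPM. With the replicate block, 3192 genes were higher and 3297 lower, and 6 of the 10 RNAs were higher and 1 lower. Epb41l4aos had the fewest counts, 12 to 53 per library, and the largest SE of the 10.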
